A study of Mus musculus with 7 samples.

Results

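The transcripts described here are 40 proliferation genes, 18 of S phase and 22 of G2 and mitosis (G2/M), out of 53801 genes counted. They were chosen by name from known roles in DNA replication and cell division, and each name matched exactly 1 gene ID of the count tables. RNA came from sorted bone marrow mesenchymal stromal cells of C57BL/6 males aged 8 weeks when treatment began. FAPi, an inhibitor of the serine protease FAP (fibroblast activation protein), was given to 4 mice at 500 µg/kg in 100 µl, and the vehicle DPBS, also 100 µl, to 3. Both were injected daily into the peritoneum for 35 days, and each library came from 7000 live cells sorted from limb bones as Pdgfra-positive and negative for CD45, Ter119 and Tie2. Which compound was used is not stated in these sources.

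A dividing cell copies its DNA in S phase and separates the copies in mitosis. Genes for the replication machinery are switched on at the entry to S phase, largely by E2F transcription factors. Genes for the mitotic spindle, its kinases and its checkpoints follow in G2, through the CCAAT box bound by NF-Y and the cell cycle genes homology region (CHR) bound by the DREAM and MYB-FOXM1 complexes. In adult marrow, stromal cells that support blood formation divide rarely, whereas precursors of red cells, neutrophils and B cells divide often.

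Libraries held 7492570 to 10569690 gene counts, so a floor of 3 counts corresponded to between 0.284 and 0.400 CPM. CPM are counts scaled to a common library total, here with TMM factors between libraries. The floor is given without these factors, so on the scale of the levels below it differs somewhat. For example, 3 counts of Bub1b were 0.283 CPM in DPBS replicate 3 and 0.388 CPM in FAPi replicate 2. The 10 stromal marker genes checked, among them Lepr and Cxcl12, were present in every library, with summed levels of 26875 to 28241 CPM in DPBS and 26681 to 30547 CPM in FAPi libraries. Of the sorting markers, Pdgfra was at 317 to 440 CPM, Ptprc (CD45) at 0.269 to 5.28 CPM and Tek (Tie2) at 0 to 1.60 CPM. DPBS replicate 2 stood apart from the other libraries in the proliferation genes, and results are given with and without it.

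Promoters of the members, taken from RefSeq on GRCm38.p6, differed between the phases in the share with a CHR or an E2F site, while a CCAAT box was frequent in both. A promoter here is the stretch from 250 bases before to 50 bases after the first listed start of a gene, and 33 of the 40 members had an entry (Aurkb, Ccna2, Ccne2, Gins2, Kif20a, Mcm4 and Tpx2 did not). The letters searched on both strands were TTTGAA or TTCGAA for the CHR, CCAAT for the CCAAT box, and TTTGGCGC, TTTCGCGC, TTTCCCGC, TTTGCCGC or GCGGGAA for an E2F site. The reverse complement of TTTCCCGC contains GCGGGAA, and overlapping matches were counted as 1 site. The CCAAT box was found in 11 of 15 S phase promoters (73.3%) and 16 of 18 G2/M promoters (88.9%), against 37.9% of 27025 promoters of all genes. A CHR was found in 14 of 18 G2/M promoters (77.8%) and 3 of 15 S phase promoters (20%), against 19.4% of all promoters. All 14 of these G2/M promoters also held a CCAAT box, a combination found in 7.70% of all promoters. An E2F site was found in 9 of 15 S phase promoters (60%) and 1 of 18 G2/M promoters (5.56%), against 5.78% of all promoters. A match is a description of the sequence and does not show binding.

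The G2/M members with the highest mean level and at least 1 match were Top2a, Ccnb2 and Cenpa. Their promoters are shown 5′ to 3′ with the CHR and CCAAT letters, on either strand, in capitals. They hold 4, 2 and 1 CHR matches and 6, 3 and 2 CCAAT boxes, in that order.
Top2a (chr11:99024140-99024439, minus strand): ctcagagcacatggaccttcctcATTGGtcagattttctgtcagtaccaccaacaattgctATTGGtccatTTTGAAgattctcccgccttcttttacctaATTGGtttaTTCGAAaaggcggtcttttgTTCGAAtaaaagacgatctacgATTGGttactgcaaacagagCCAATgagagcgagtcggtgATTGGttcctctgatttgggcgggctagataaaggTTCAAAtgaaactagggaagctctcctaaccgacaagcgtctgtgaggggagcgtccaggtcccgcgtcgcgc
Ccnb2 (chr9:70421505-70421804, minus strand): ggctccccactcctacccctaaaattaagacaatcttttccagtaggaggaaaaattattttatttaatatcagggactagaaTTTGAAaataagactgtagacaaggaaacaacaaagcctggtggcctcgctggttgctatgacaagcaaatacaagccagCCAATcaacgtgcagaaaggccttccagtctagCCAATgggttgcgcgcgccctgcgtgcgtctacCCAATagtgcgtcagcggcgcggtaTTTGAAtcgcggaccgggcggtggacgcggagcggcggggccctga
Cenpa (chr5:30666636-30666935, plus strand): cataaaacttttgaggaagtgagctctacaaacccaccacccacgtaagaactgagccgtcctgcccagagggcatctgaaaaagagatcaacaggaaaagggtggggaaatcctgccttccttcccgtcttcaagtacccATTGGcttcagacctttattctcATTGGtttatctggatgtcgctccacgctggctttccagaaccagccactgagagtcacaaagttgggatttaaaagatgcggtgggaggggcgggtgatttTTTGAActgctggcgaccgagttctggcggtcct

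In S phase the corresponding members were Mcm3, Rrm2 and Rrm1, shown with the CCAAT and E2F letters in capitals. Mcm3 has 2 E2F sites, both after the start, and Rrm1 has 1. Rrm2 has 1 CCAAT box, and none of the E2F letters searched are in this window.
Mcm3 (chr1:20820263-20820562, minus strand): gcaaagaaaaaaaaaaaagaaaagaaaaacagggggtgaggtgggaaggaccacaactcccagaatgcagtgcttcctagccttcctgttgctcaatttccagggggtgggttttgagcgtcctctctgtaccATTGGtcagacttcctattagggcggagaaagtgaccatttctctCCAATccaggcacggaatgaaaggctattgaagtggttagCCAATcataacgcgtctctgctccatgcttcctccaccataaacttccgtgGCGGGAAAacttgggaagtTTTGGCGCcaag
Rrm2 (chr12:24708004-24708303, plus strand): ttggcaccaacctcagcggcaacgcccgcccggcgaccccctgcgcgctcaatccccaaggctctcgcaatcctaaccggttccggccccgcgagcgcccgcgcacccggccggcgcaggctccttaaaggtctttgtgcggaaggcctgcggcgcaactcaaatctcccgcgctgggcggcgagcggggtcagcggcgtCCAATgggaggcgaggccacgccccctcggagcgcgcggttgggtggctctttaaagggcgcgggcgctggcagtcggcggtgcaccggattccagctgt
Rrm1 (chr7:102441445-102441744, plus strand): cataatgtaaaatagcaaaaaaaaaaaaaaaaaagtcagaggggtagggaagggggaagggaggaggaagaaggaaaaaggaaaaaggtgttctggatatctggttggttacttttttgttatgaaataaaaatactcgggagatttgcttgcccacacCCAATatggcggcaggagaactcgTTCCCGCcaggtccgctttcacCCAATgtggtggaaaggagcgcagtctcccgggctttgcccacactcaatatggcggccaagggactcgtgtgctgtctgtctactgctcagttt

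**Figure D1:**
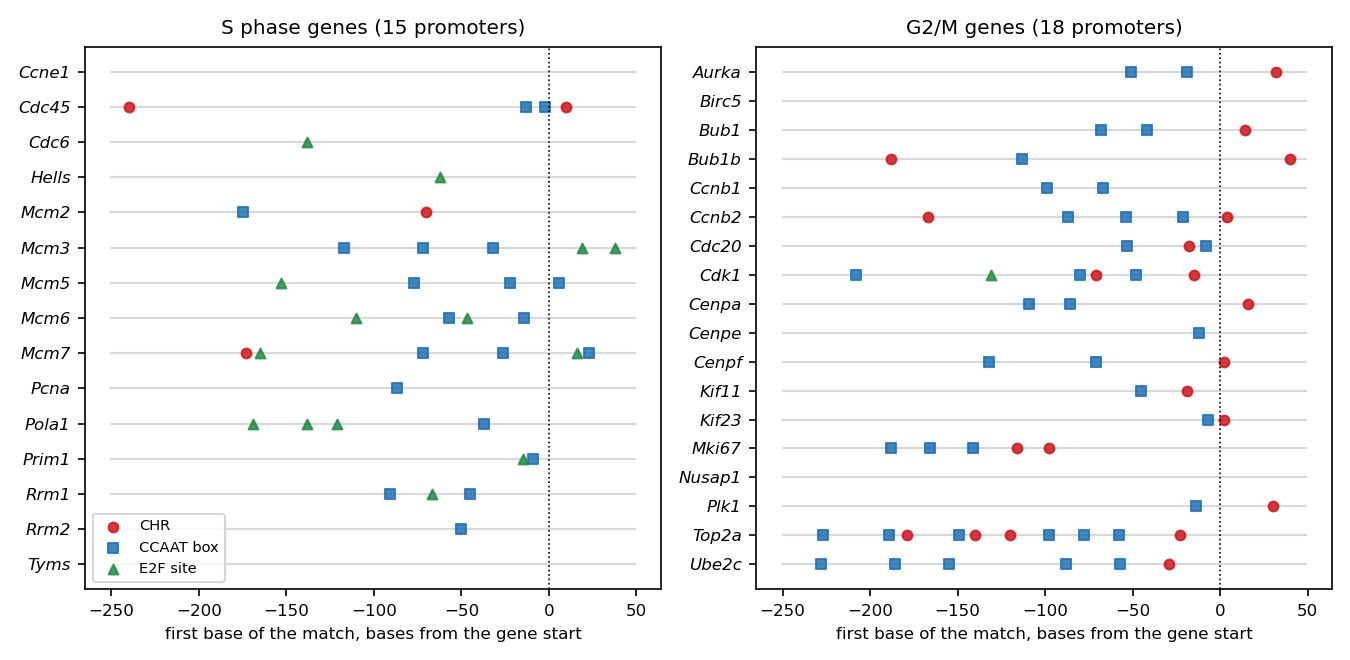
Positions of CHR, CCAAT box and E2F site matches in the promoters of 15 S phase and 18 G2/M genes. The x axis gives the first base of each match in bases from the gene start (dotted line), and each grey line is the 300 bases searched. CHR matches are frequent in the right panel (14 of 18 promoters) and E2F sites in the left (9 of 15).

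The members are described first library by library. DPBS replicate 2 had the highest level of 15 of the 22 G2/M members and 8 of the 18 S phase members, where 17.5% of the 12930 tested genes peaked in that library. Its level was above the mean of the other 6 libraries for 18 G2/M and 15 S phase members, and more than 2-fold above it for 16 and 7. The share of all genes was not taken for these counts. Over all tested genes the highest library was a median of 5.11-fold above the lowest. The members together took 0.253% of its counts (95% Wilson interval 0.250 to 0.256%), against 0.0608 to 0.128% in the other 6 libraries. These intervals and floors cover counting error only, since amplified reads without molecular identifiers are not independent molecules.

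The summed level of the G2/M members was 531, 1402 and 363 CPM in DPBS replicates 1 to 3 and 391, 371, 459 and 225 CPM in FAPi replicates 1 to 4. DPBS replicate 2 was highest, and DPBS replicate 3 lay inside the FAPi range, so the groups overlapped. The S phase members summed to 556, 1062 and 362 CPM in DPBS and to 559, 851, 775 and 411 CPM in FAPi libraries. Here the group means were close, at 659.98 ± 361 CPM (SD, n = 3) and 649 ± 201 CPM (SD, n = 4). In bulk libraries, fewer dividing cells and less RNA per cell cannot be told apart.

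**Figure D2:**
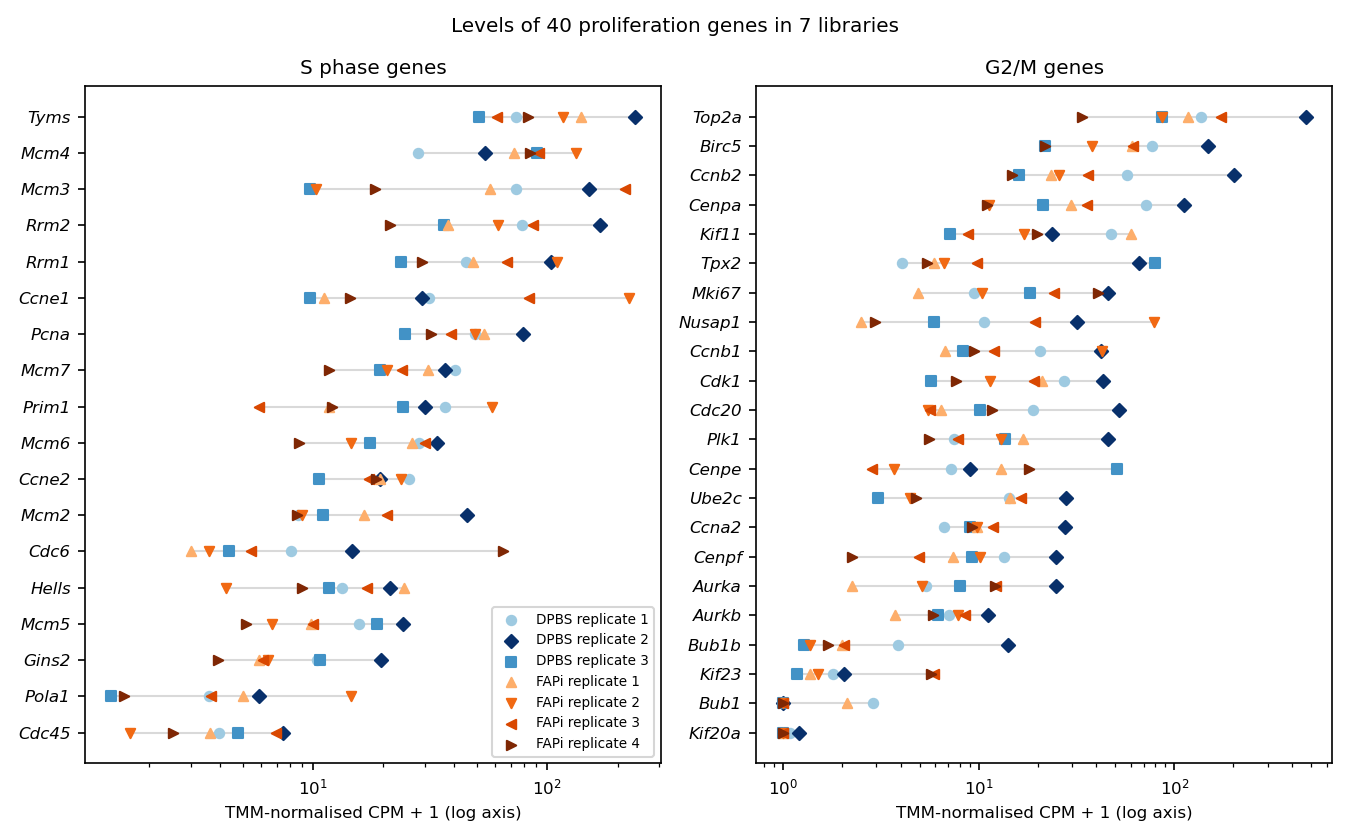
Level of each of the 40 genes in each of the 7 libraries, as TMM-normalised CPM + 1 on a log axis, S phase genes on the left and G2/M genes on the right. Dark blue diamonds (DPBS replicate 2) lie furthest right for 15 of the 22 G2/M genes and 8 of the 18 S phase genes.

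The ratio of the summed S phase to the summed G2/M level differed between the groups without overlap. It was 1.05, 0.757 and 0.997 in DPBS replicates 1 to 3 and 1.43, 2.29, 1.69 and 1.82 in FAPi replicates 1 to 4. Without DPBS replicate 2, the remaining DPBS values of 1.05 and 0.997 stayed below the lowest FAPi value. Leaving out Top2a and Ccne1, chosen after their values were seen, gave 1.11 to 1.33 in DPBS and 2.004 to 2.41 in FAPi libraries. With the mean of log2(CPM + 1) over members in place of sums, the S minus G2/M difference was 0.46 to 0.90 in DPBS and 0.92 to 1.28 in FAPi libraries, so the gap between the groups was narrow. The same ratio over other genes of the same phases, listed below, was 1.29 to 1.73 in DPBS and 1.53 to 1.98 in FAPi libraries, with overlap. The ratio was noticed in these data and was given no test.

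**Figure D3:**
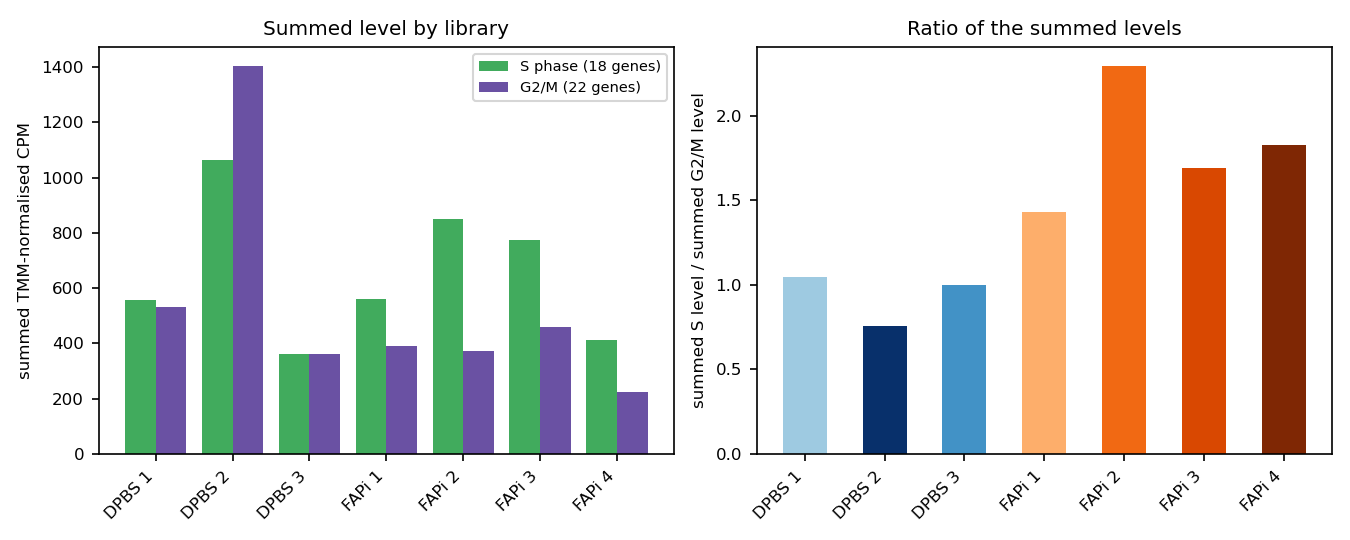
Summed TMM-normalised CPM of the 18 S phase and 22 G2/M genes in each library (left) and the ratio of the 2 sums (right). Bars start at 0 and there is 1 library per bar. DPBS replicate 2 has the highest sums (1062 and 1402 CPM), and the ratio is 0.757 to 1.05 in DPBS and 1.43 to 2.29 in FAPi libraries.

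The design asks how gene expression in marrow stroma differs after FAP inhibition. In the test over all genes (edgeR's quasi-likelihood test with Benjamini-Hochberg adjustment), 36 of the 40 members passed the low-count filter and 0 of them passed the 0.05 threshold in either direction. The same was true of all 12930 genes tested, with 0% called higher and 0% called lower. In simulated data of this design the test recovered 0% of 2-fold and 14% of 4-fold changes, so 0 calls do not show equal levels. At an unadjusted p under 0.05, the edgeR test had 2 of 18 S phase and 4 of 18 G2/M members lower in FAPi mice and 0 higher, where 3.69% of all tested genes were lower and 4.45% higher. DESeq2 called 1 member, Tpx2, lower, where it called 0.379% of all genes lower and 0.626% higher. The FAPi minus DPBS estimate was below 0 for 12 of 18 tested S phase members, with a median log2 difference of -0.25. It was below 0 for 16 of 18 tested G2/M members, with a median of -0.85. Over all tested genes 49.4% of estimates were below 0 and the median was 0.01.

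These counts depended on DPBS replicate 2. Of the 36 tested members, 18 changed the sign of their estimate when some single library was left out, and that library was not always DPBS replicate 2. The share of all genes was not taken for this count. Without DPBS replicate 2, 7 of the 18 S phase and 11 of the 18 G2/M members had an estimate below 0, against 47.6% of all genes. The medians became 0.19 and -0.084. Without DPBS replicate 3 the medians were -0.61 and -1.31, and without DPBS replicate 1 they were -0.31 and -0.93. These G2/M medians are over the members that passed the filter of each fit, not over the same 18. Without DPBS replicate 3 that filter also let in Bub1 (-1.69), Bub1b (-3.32) and Kif23 (1.49), and without DPBS replicate 1 Kif23 (2.06). In the fit without DPBS replicate 2 it let in Bub1 (-1.68) and Kif23 (2.37), which are not counted in the 11 of 18. SEs of the members' log2 differences ranged from 0.43 to 1.19.

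**Figure D4:**
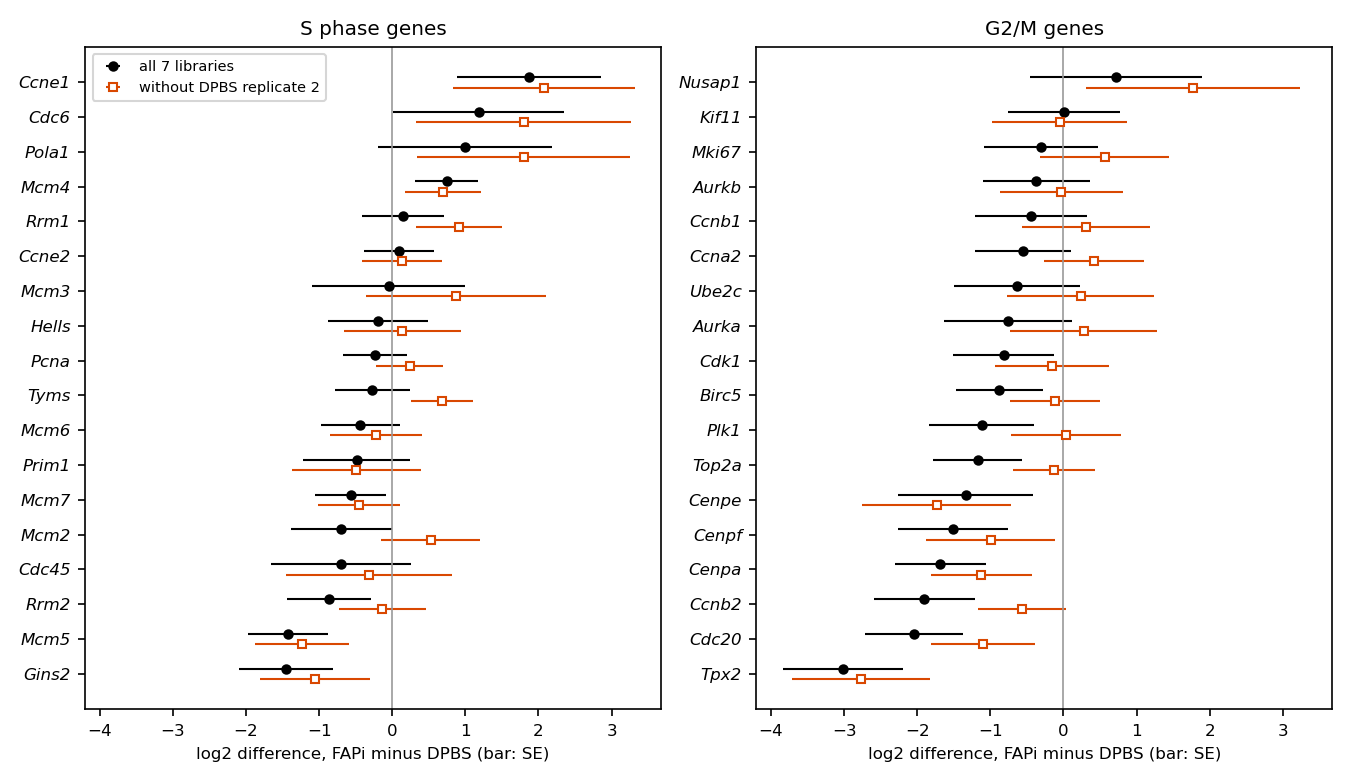
Log2 difference (FAPi minus DPBS) with its SE for the 36 tested members, from edgeR with all 7 libraries (black circles) and without DPBS replicate 2 (open orange squares). Most G2/M estimates lie left of 0 with all libraries (16 of 18) and fewer do without that library (11 of 18), while Tpx2 remains the lowest in both.

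Among the cyclins that open S phase, Ccne1 (chromosome 7, 38097984 to 38107534, mm10) encodes cyclin E1. It was at 30.4, 28.2 and 8.67 CPM in DPBS replicates 1 to 3 and at 10.2, 223, 82.5 and 13.4 CPM in FAPi replicates 1 to 4. FAPi replicates 2 and 3 were high, and the other FAPi libraries lay within the DPBS range. The estimate, 1.87 ± 0.98 (SE) on the log2 scale, missed the edgeR threshold (adjusted p = 0.668), and it was 0.65 without FAPi replicate 2. Ccne2, the cyclin E2 gene, which shares exon bases with Ints8 on the other strand, varied least of the tested members, 2.56-fold between its lowest and highest library. Its log2 difference was 0.10 ± 0.48.

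The MCM helicase, loaded onto origins with the help of Cdc6, is built from 6 related subunits, and the estimates of their transcripts differed in sign. Mcm5 (chromosome 8, 75109569 to 75128439) was at 14.7, 23.1 and 17.8 CPM in DPBS and at 8.79, 5.69, 8.97 and 4.19 CPM in FAPi libraries. All 4 FAPi values lay below all 3 DPBS values, a pattern found in 3.95% of tested genes (the opposite pattern was found in 3.39%). The log2 difference of -1.42 ± 0.55 did not pass edgeR (adjusted p = 0.547) and stayed between -1.57 and -1.24 when any 1 library was left out. Mcm4 was at 27.0, 53.1 and 89.3 CPM in DPBS and at 71.2, 132, 91.3 and 83.3 CPM in FAPi libraries. Only DPBS replicate 3 reached the FAPi range, and the difference was 0.74 ± 0.43 (adjusted p = 0.697). Mcm3 was at 72.8, 149 and 8.67 CPM in DPBS and at 56.2, 9.31, 214 and 17.4 CPM in FAPi libraries. Its values spread as widely within each group as between them, with a difference of -0.05 ± 1.05. Mcm2 was at 7.61, 44.4 and 9.99 CPM in DPBS and at 15.6, 8.01, 19.7 and 7.54 CPM in FAPi libraries. Only DPBS replicate 2 was high, and the difference of -0.70 ± 0.69 became 0.53 without it. Mcm6 and Mcm7 differed by -0.44 ± 0.54 and -0.57 ± 0.48, and Mcm7 shares exon bases with Ap4m1 on the other strand. Per kilobase of exon, the mean level over the 7 libraries was 21.8 CPM for Mcm4 and 20.1 CPM for Mcm3. It was 5.71, 4.68, 2.98 and 2.32 CPM for Mcm7, Mcm6, Mcm5 and Mcm2. Exon length here merges all annotated transcripts of a gene, so these levels depend on the annotation as well as on the RNA.

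Gins2 encodes a subunit of GINS, which with Cdc45 completes the active helicase. Its transcript (chromosome 8, 120578633 to 120589304) was at 9.41, 18.6 and 9.71 CPM in DPBS and at 4.90, 5.43, 5.13 and 2.93 CPM in FAPi libraries. As for Mcm5, all FAPi values lay below all DPBS values, and the difference was -1.45 ± 0.64 (edgeR adjusted p = 0.598). It ranged from -1.62 to -1.06 when any 1 library was left out. Gins2 shares 2758 exon bases with Gse1 on the other strand. Cdc45, Ccna2, Plk1, Kif20a, Ube2c and Nusap1 also share exon bases with a gene on the other strand. The strand setting of the counting is not stated, so the reads of such pairs may not be separated. Mcm5 and Gins2 were the only 2 of the 36 tested members whose groups did not overlap. Of all tested genes, 3.95% had every FAPi value below every DPBS value and 3.39% the opposite.

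Of the replication enzymes, Pcna encodes the sliding clamp of DNA polymerases and has 2 pseudogenes annotated under its name that may share its reads. Pseudogenes under other names were not searched for any member. It was at 48.1, 77.8 and 23.7 CPM in DPBS and at 52.7, 48.3, 37.7 and 30.9 CPM in FAPi libraries. The FAPi values lay inside the DPBS range, with a difference of -0.23 ± 0.44. Prim1 and Pola1, for the primase and its partner polymerase, differed by -0.49 ± 0.73 and 0.99 ± 1.19. Without FAPi replicate 2, where both were highest, these estimates were -1.74 and -0.12.

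The nucleotide suppliers were among the more abundant members. Rrm1 and Rrm2 encode the subunits of ribonucleotide reductase, and Tyms encodes thymidylate synthase. Rrm2 was at 77.0, 167 and 35.2 CPM in DPBS and at 36.7, 61.0, 86.3 and 20.2 CPM in FAPi libraries, and Rrm1 at 44.0, 103 and 22.8 CPM and at 47.3, 109, 66.3 and 28.3 CPM. In both genes DPBS replicate 3 and FAPi replicate 4 were low. The difference of Rrm2 was -0.86 ± 0.57 and -0.14 without DPBS replicate 2, and that of Rrm1 was 0.15 ± 0.57 and 0.91 without it. Tyms was at 72.7, 236 and 50.3 CPM in DPBS and at 139, 116, 60.1 and 81.7 CPM in FAPi libraries. DPBS replicate 2 was highest and DPBS replicate 3 lowest, and the difference of -0.27 ± 0.51 became 0.69 without DPBS replicate 2. Tyms has 1 pseudogene annotated under its name. Hells, which encodes a chromatin remodelling ATPase, differed by -0.19 ± 0.68. The 8 S phase members not given library by library (Ccne2, Cdc6, Mcm6, Mcm7, Cdc45, Pola1, Prim1 and Hells) differed by -0.70 to 1.18, with 5 estimates below 0 and adjusted p-values of 0.807 to 0.985.

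In mitosis, Cdk1 with B-type cyclins drives entry into division. Ccnb2 (chromosome 9, 70407692 to 70421547), the cyclin B2 gene, was at 56.3, 199 and 15.1 CPM in DPBS and at 22.5, 24.8, 35.3 and 13.8 CPM in FAPi libraries. DPBS replicates 1 and 2 were above every FAPi library, and DPBS replicate 3 was below 3 of them. The difference of -1.90 ± 0.69 (edgeR adjusted p = 0.516) shrank to -0.56 without DPBS replicate 2. Per kilobase of merged exon, Ccnb2 had the highest level of all members, 34.3 CPM as a mean over the libraries. Its merged exons, at 1531 bases, are also the shortest of the members, so this rank depends on the annotation. Ccnb2 and Ccnb1 each have 1 pseudogene annotated under their name. Ccnb1, Ccna2 and Cdk1 differed by -0.45 ± 0.77, -0.55 ± 0.65 and -0.82 ± 0.69, and without DPBS replicate 2 by 0.31, 0.42 and -0.16.

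Tpx2 and Kif11 act together on the spindle, where Tpx2 activates Aurora A kinase and Kif11 is the motor that pushes the poles apart. Tpx2 (chromosome 2, 152847964 to 152895321) was at 3.05, 64.6 and 78.2 CPM in DPBS and at 4.90, 5.69, 8.85 and 4.47 CPM in FAPi libraries. DPBS replicates 2 and 3 were high, while DPBS replicate 1 was below every FAPi library. The difference of -3.02 ± 0.82 had the smallest p of any member but did not pass edgeR (adjusted p = 0.470). DESeq2 called it, with a log2 difference of -3.00 (adjusted p = 0.0158). The edgeR estimate ranged from -3.58 to -2.50 when any 1 library was left out, with limma voom and sample weights it was -1.53, and none of these passed. Kif11 was at 46.7, 22.8 and 6.13 CPM in DPBS and at 58.9, 16.03, 7.80 and 19.0 CPM in FAPi libraries. Replicate 1 of each group was highest, and the difference was 0.01 ± 0.77. Nusap1, a spindle microtubule binding protein, reached 77.7 CPM in FAPi replicate 2 and was between 1.51 and 30.7 CPM in the other libraries. It had the widest spread of the tested members, 51.6-fold, and its difference of 0.72 ± 1.18 was -1.05 without FAPi replicate 2.

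The kinetochore genes had some of the lowest estimates. Cenpa (chromosome 5, 30666777 to 30674830) encodes the histone H3 variant that marks centromeres. It was at 70.6, 110 and 20.5 CPM in DPBS and at 28.5, 10.3, 34.7 and 10.1 CPM in FAPi libraries. DPBS replicates 1 and 2 were above every FAPi library and DPBS replicate 3 was within their range, with a difference of -1.68 ± 0.62 (edgeR adjusted p = 0.529) that was -1.12 without DPBS replicate 2. Cenpf, a large protein of the outer kinetochore, was at 12.5, 23.9 and 8.29 CPM in DPBS and at 6.40, 9.18, 3.96 and 1.26 CPM in FAPi libraries. Only FAPi replicate 2 reached the DPBS range, and the difference was -1.51 ± 0.75 (adjusted p = 0.647) and -0.99 without DPBS replicate 2. Cenpe, the kinetochore motor, was highest in DPBS replicate 3 at 49.7 CPM. Its difference of -1.34 ± 0.93 turned to 0.24 without that library.

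Cdc20 and Ube2c belong to the machinery that tags mitotic cyclins for destruction, Cdc20 as activator of the anaphase-promoting complex and Ube2c as its ubiquitin-conjugating enzyme. Cdc20 (chromosome 4, 118432901 to 118437352) was at 18.01, 51.2 and 9.14 CPM in DPBS and at 5.40, 4.52, 4.66 and 10.7 CPM in FAPi libraries. Only FAPi replicate 4 overlapped the DPBS range. The difference was -2.04 ± 0.67 (edgeR adjusted p = 0.490) and -1.10 without DPBS replicate 2, and Cdc20 shares 53 exon bases with Elovl1 on the other strand. Ube2c differed by -0.63 ± 0.86, and by 0.24 without DPBS replicate 2.

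Top2a, which untangles DNA before chromosomes separate, was the most abundant member by CPM and overlaps the snoRNA gene Gm23451 on the same strand. It (chromosome 11, 98992943 to 99024189) was at 136, 467 and 85.9 CPM in DPBS and at 117, 85.8, 172 and 32.8 CPM in FAPi libraries. DPBS replicate 2 alone exceeded the FAPi range, and the difference of -1.17 ± 0.61 (edgeR adjusted p = 0.663) was -0.12 without it. Birc5 encodes survivin, a subunit of the chromosomal passenger complex, and was at 75.7, 148 and 20.7 CPM in DPBS and at 59.4, 36.8, 60.6 and 20.9 CPM in FAPi libraries. DPBS replicates 1 and 2 were highest and DPBS replicate 3 lowest, and the difference of -0.87 ± 0.59 was -0.12 without DPBS replicate 2. Mki67, which encodes the proliferation marker Ki-67, was at 8.51, 44.99 and 17.2 CPM in DPBS and at 3.89, 9.43, 23.4 and 39.8 CPM in FAPi libraries. DPBS replicate 2 and FAPi replicate 4 were high, and the difference of -0.30 ± 0.78 became 0.57 without DPBS replicate 2. FAPi replicate 4 was thus second in Mki67 but lowest in the G2/M sum.

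The mitotic kinases were less abundant. Plk1, Aurka and Aurkb differed by -1.12 ± 0.72, -0.76 ± 0.87 and -0.37 ± 0.73, and Plk1 and Aurka by 0.03 and 0.28 without DPBS replicate 2. Bub1, Bub1b, Kif20a and Kif23 did not pass the low-count filter. Bub1, a checkpoint kinase gene, had 21 counts in DPBS replicate 1, 9 in FAPi replicate 1 and 0 in the other 5 libraries. Bub1b, its relative, had 32, 124 and 3 counts in DPBS and 8, 3, 9 and 5 in FAPi libraries, with most of them in DPBS replicate 2. Kif20a and Kif23 encode motors of the final cell separation. Kif20a had 1 and 2 counts in DPBS replicates 1 and 2 and 0 elsewhere, and Kif23 had 9, 10 and 2 counts in DPBS and 3, 4, 42 and 34 in FAPi libraries. Over the 9 tested G2/M members without values in every library above, differences ranged from -1.34 to 0.72, with 8 of 9 below 0 and adjusted p-values of 0.726 to 0.942.

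Other genes of the same phases, listed with earlier results of these data known, were read in the same test. Of 48 further S phase genes 44 were tested and 0 passed edgeR, with 26 estimates below 0 and a median of -0.32. At an unadjusted p under 0.05, 5 were lower and 1 higher. The smallest p belonged to Lig1, the ligase that joins Okazaki fragments, with a mean of 102 ± 30.4 CPM in the 3 DPBS and 51.3 ± 16.4 CPM in the 4 FAPi libraries, errors being SDs (log2 difference -0.99 ± 0.37, edgeR adjusted p = 0.529). Slbp, which binds the stem loop of histone transcripts, was at 157 ± 19.6 and 304 ± 123 CPM (difference 0.95 ± 0.35), and Gmnn, the licensing inhibitor geminin, at 29.6 ± 16.3 and 12.3 ± 0.890 CPM (difference -1.27 ± 0.48). Without DPBS replicate 2 the difference of Gmnn was -0.73. Of 55 further G2/M genes 43 were tested and 0 passed, with 31 estimates below 0, a median of -0.45, and 6 lower and 0 higher at an unadjusted p under 0.05. Spc25, a kinetochore subunit, was at 32.3 ± 24.5 and 9.05 ± 4.21 CPM (difference -1.83 ± 0.61, and -1.02 without DPBS replicate 2). Aspm, a spindle pole protein, was at 21.5 ± 24.9 and 4.30 ± 1.495 CPM (difference -2.31 ± 0.80, and -0.73 without DPBS replicate 2). Cdc25c, a phosphatase that activates Cdk1, was at 42.6 CPM in DPBS replicate 1 and at 1.06 to 1.88 CPM in the other 6 libraries. Without DPBS replicate 2 the medians of these further lists were 0.14 and 0.06, with 17 of 44 and 18 of 43 estimates below 0.

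Of the sums over the erythroid, neutrophil and B lineage marker lists, the erythroid sum was closest to the G2/M sum in the order of the libraries. The summed level of 16 erythroid markers was 6560, 15792 and 1747 CPM in DPBS replicates 1 to 3 and 2854, 2822, 3244 and 1607 CPM in FAPi replicates 1 to 4. Ordered by this sum, all 7 libraries took the same place as when ordered by the G2/M sum, although FAPi replicates 1 and 2 were close. The sum was 85.2 to 94.04% globin transcripts from 4 genes. With the other 12 erythroid markers 4 of 7 libraries kept their place, and with the mean of log2(CPM + 1) over each list 5 of 7 did. The further G2/M genes, ordered by their sum, shared 5 of 7 places with the members. DPBS replicate 2 had the highest level of 13 of the 16 erythroid markers, 9 of 14 neutrophil markers and 11 of 13 B lineage markers. Neutrophil markers summed to 658 to 2871 CPM in DPBS and 197 to 639.7 CPM in FAPi libraries, and 3 of 7 libraries had the same place as in the G2/M order. Ordered by their mean of log2(CPM + 1), however, the libraries followed the G2/M sum throughout, from 5.13 in DPBS replicate 2 to 2.18 in FAPi replicate 4. That order was not the order by the G2/M mean of log2(CPM + 1). A shared order was thus not particular to the erythroid list. B lineage markers summed to 41.4 to 407 CPM in DPBS and 30.2 to 327 CPM in FAPi libraries, again with 3 of 7 places shared, and FAPi replicate 1 was high in them at 327 CPM but not in the G2/M sum. None of the erythroid, neutrophil or B lineage markers was at 0 in every library. Of 9 T and NK cell markers 6 were (Cd3d, Cd3e, Trac, Cd8a, Ncr1 and Klrb1c), and that list summed to at most 3.70 CPM. Macrophage markers summed to 14.2 to 41.8 CPM in DPBS and 7.88 to 28.4 CPM in FAPi libraries, with Fcgr1 at 0 throughout. Blood progenitor markers summed to 58.4, 64.9 and 23.3 CPM in DPBS and to 43.2, 63.7, 61.04 and 52.8 CPM in FAPi libraries, so that both groups reached about the same level. Megakaryocyte markers were highest in DPBS replicate 3, which was sixth in the G2/M sum, at 508 CPM, and lay between 88.5 and 191 CPM elsewhere. Endothelial markers summed to 373 CPM in FAPi replicate 1 and to 25.7 to 78.7 CPM elsewhere. By their mean of log2(CPM + 1), DPBS replicate 3 was above FAPi replicate 1 (3.26 and 2.88). Chondrocyte markers summed to 69.4 to 82.3 CPM in DPBS and 85.7 to 159 CPM in FAPi libraries. The part of these cells in the levels of the proliferation genes was not tested.

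**Figure D5:**
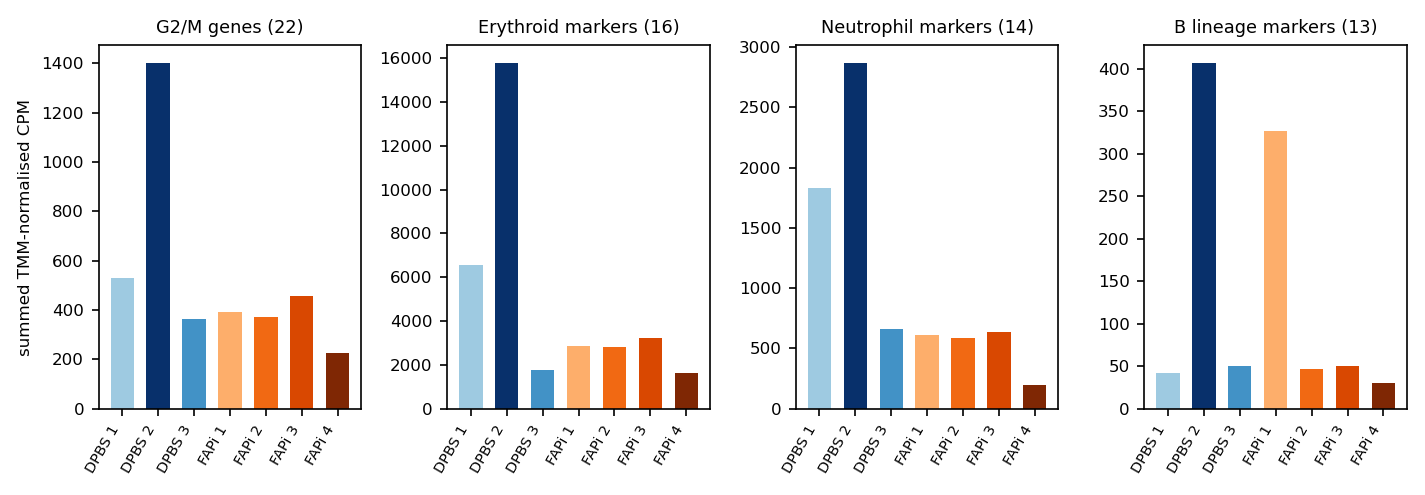
Summed TMM-normalised CPM of the 22 G2/M genes and of the erythroid, neutrophil and B lineage marker lists in each library, on axes that start at 0 and differ in scale. As sums, the erythroid bars follow the order of the G2/M bars in all 7 libraries (4 of 7 without the globin genes), from DPBS replicate 2 (15792 and 1402 CPM) down to FAPi replicate 4 (1607 and 225 CPM).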

How the data were processed

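Per the submitters' processing notes, reads were processed with STAR and HTSeq on mm10, without versions; neither the annotation nor the strand setting is stated there. The authors deposited, per library, a table of gene counts and a table of CPM. The names of the count tables carry a tag for duplicate removal that no protocol describes. The deposited CPM equal each count scaled to its library total, to within 4.55e-05, and in 6 of 7 CPM tables the end is repeated, so the first line per gene was used. Symbols and coordinates come from GENCODE M21 (53706 of 53801 IDs matched, versions ignored).

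The test on counts used edgeR 4.0.16 (R 4.3.3): filterByExpr by group (minimum count 10), TMM, estimateDisp, and robust glmQLFit and glmQLFTest over all genes, FAPi minus DPBS, with Benjamini-Hochberg adjustment at 0.05. The SE is the absolute log2 difference divided by the square root of F. Scripts were tested on simulated counts of 12930 genes, drawn with the dispersions of these data, with 50 genes changed at each fold. At the 0.05 threshold edgeR recovered 0% of 2-fold, 14% of 4-fold, 48% of 8-fold and 58% of 16-fold changes. Alternatives used DESeq2 1.42.0, limma 3.58.1, other scalings and filters, a replicate block, and omission of each library. Medians and counts over members are descriptions over those that passed the filter. With 1 library left out, medians of the G2/M members are over those that passed the filter of that fit.

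The members and lists were chosen with earlier results of these data known. Values in every library are given for members past 0.05 in edgeR or DESeq2, the 5 per phase with the smallest p, the 5 per phase with the highest mean CPM, and Mki67, Top2a, Pcna and Mcm2, and 3 genes per further list were named by p. Other values that bound a range or stand apart were chosen after they were seen. Every pair of libraries differed by more than sampling noise. The design text gives the number of mice per group but does not tie each library to 1 mouse, so p-values measure the spread between these libraries, which may be technical.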

Additional observations from a re-analysis of the deposited data

Results flagged for a closer look

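Within the FAPi group, 39 values (36 members, both sums and their ratio) were screened for one library lying apart, with Dixon's ratio of its gap to the nearest value over the range, at the 95% critical value. The screen marked 4, where about 1 in 20, or 1.95, would be marked by chance if the values were independent and normally distributed. Levels were screened as CPM without a log, and the sums and ratio are built from the members, so 1.95 is a rough guide. DPBS with 3 libraries was not screened. Cdc6, the origin licensing factor, was at 63.9 CPM in FAPi replicate 4 and between 2.01 and 4.43 CPM in the other FAPi libraries. Without that library its log2 difference of 1.18 became -1.40. Prim1 reached 57.3 CPM in FAPi replicate 2, against 4.89 to 11.03 CPM in the remaining FAPi libraries. Ccnb1 reached 41.6 CPM in the same library, against 5.77 to 11.1 CPM, and it was at 41.4 CPM in DPBS replicate 2. Cdc20 reached 10.7 CPM in FAPi replicate 4, against 4.52 to 5.40 CPM.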

How the results depend on the processing

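No S phase member and no gene of the further lists passed the threshold under any alternative, and of the G2/M members 1 did (Tpx2, lower, with DESeq2). DESeq2 called 81 genes higher and 49 lower over the whole table, with 412 adjusted p-values given as NA, where edgeR called 0 and 0 (576 and 477 at p under 0.05 before adjustment). Dropping the low-count filter gave 5 and 1 calls, with Stard8, Gm47917, Zbtb40, Ncoa3 and Cdk6 higher and Ldah lower. Limma on log2 of the deposited CPM, with a pseudocount of 1 or 0.1, gave 4 and 2, adding Apod to the lower genes and losing Zbtb40. Limma voom, and edgeR at an adjusted p under 0.1, each gave 1 and 0, in both cases Stard8. These genes were named after their values were seen. Omitting single libraries produced from 0 to 2 higher and from 0 to 1 lower calls, all of them in the fit that omits DPBS replicate 3 (Stard8, Gm47917, Mbnl3).

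The median of the G2/M members ranged from -1.31 to -0.084 and that of the S phase members from -0.61 to 0.19 when 1 library was left out, and the ends nearest to or above 0 came without DPBS replicate 2. The value of -1.31 came without DPBS replicate 3, where Bub1, Bub1b and Kif23 also passed the filter. For changes of sign, the share of all genes was not taken. When 1 library was left out, 18 of the 36 tested members changed sign, 7 of the 19 given library by library and 11 of the other 17. The ranges of the former were -0.82 to 0.81 for Kif11, -1.10 to 0.53 for Mcm2, -1.48 to 0.87 for Mcm3, -0.93 to 0.57 for Mki67, -0.57 to 0.24 for Pcna, -0.27 to 0.91 for Rrm1 and -0.64 to 0.69 for Tyms. Kif11 was -0.18 with library totals only, -0.064 with upper-quartile factors, -0.26 with limma voom, and -0.13 with limma on deposited CPM at either pseudocount. Rrm1 was -0.057 with library totals only, and Tyms 0.060 with limma voom. The other 12 members given library by library kept their sign under the alternatives run, as did 6 of the other 17, and the cause of these changes was not tested.

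Same-numbered DPBS and FAPi libraries did not deviate together, so the numbers give no pairing (correlations of deviations -0.01, -0.02 and -0.05), and no DPBS library correlated best with its own number. With the replicate block 0 genes passed, the medians were -0.18 (S phase) and -0.53 (G2/M), and the differences of Pcna and Tyms turned to 0.038 and 0.060. FAPi replicate 4 has no partner in that fit. Levels near 3 counts, as for Kif20a, were not resolved at this depth. The comparisons of library order and of the ratio under other summaries were added after the data were seen.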
